A study of Mus musculus with 22 samples.

Results

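The sex difference in the liver without a pituitary was measured on 4 of the series' 22 arrays, those on which liver RNA of hypophysectomised (Hypox) males (M) and females (F) was hybridised directly against each other. All mice were of the ICR strain and aged 8 weeks, and every pool on these 4 arrays came from mice whose pituitary had been removed. On 2 arrays the mice had received 1 injection of growth hormone (GH) and were killed 30 min later, with pools of 4 M and 4 F on replicate 1 and of 3 M and 3 F on replicate 2. On the other 2 arrays they had received no GH, with pools of 3 M and 3 F on replicate 1 and of 3 M and 2 F on replicate 2. On both replicates 1 the M pool carried Alexa 647 and the F pool Alexa 555, and on both replicates 2 the dyes were exchanged. Pools of sham-operated M and F with an intact pituitary, of 4 M and 3 F on replicate 1 and of 3 M and 3 F on replicate 2, had been compared in the same way on 2 arrays. Each pool is 1 mixture of liver RNA from the named number of mice, so differences between single mice are not seen, and removing the pituitary takes away its other hormones together with GH.

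In mice the pituitary releases GH in sharp pulses in males and more evenly in females, and hepatocytes read this pattern through the GH receptor, JAK2 and the transcription factor STAT5b. Much of the sex difference in liver enzymes that handle steroids, drugs and fatty acids depends on that pattern, with BCL6 and CUX2 as sex-dependent repressors downstream. Sex chromosome genes remain as another source of difference when the pituitary is gone, and gonadal steroids were not measured. The 4 arrays ask which genes still differ between M and F in that state, and whether 1 GH pulse given to both sexes changes the difference.

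All values below are log2 ratios of M over F, so a positive value is higher in M. A gene was called when its adjusted p in limma was under 0.05 over all 26185 genes tested and all 4 arrays had the same sign. The 4 arrays did not agree equally well. Across genes, arrays of the same dye orientation had a correlation of 0.458 (replicates 1) and 0.395 (replicates 2), whereas the 2 GH arrays had one of 0.00678 and the 2 untreated arrays one of 0.256. With the fitted dye term of each gene taken out, the arrays of the same orientation had correlations of 0.494 and 0.376. These are descriptions over 26180 to 26183 genes that share pools, slides and dyes. GH replicate 1 stood apart with an SD of its log2 ratios of 0.42, against 0.272 on GH replicate 2 and 0.292 and 0.285 on the untreated arrays.

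Markers of other tissues moved on single arrays. The 17 skeletal muscle genes tested had a median log2 ratio of 2.95 on GH replicate 1 and of -0.03 on GH replicate 2, against 0.05 and -0.05 on the untreated arrays. Their summed intensity ranged between 2920 and 144000 in the M channels and between 3180 and 13600 in the F channels, and none of them was below background in every channel of either sex. The 7 genes of mucous surfaces had a median of 2.40 on untreated replicate 1 and between -0.12 and 0.03 on the other 3 arrays. Their summed intensity was 660 to 4470 in M and 598 to 878 in F. The 9 hepatocyte markers were bright in both sexes, with summed intensities of 767000 to 1180000 in M and 819000 to 1260000 in F, and followed the dye orientation, with medians of 0.33 and -0.46 on the GH arrays and 0.44 and -0.44 on the untreated arrays. None of the muscle, mucous or hepatocyte genes was called over the 4 arrays in limma. Of them 0, 0 and 1 had an unadjusted p under 0.05, a smaller share than the 20.2% of all genes. In the sham livers used for comparison the muscle list had a median of 2.36, with 3 of 17 called higher in M (5.03% of all genes were). There 15 of the 17 had an unadjusted p under 0.05 in limma, against 21.1% of all genes. The part of these tissues in the results was not tested. In pooled tissue, fewer cells of a type and less RNA per cell cannot be told apart.

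**Figure D1:**
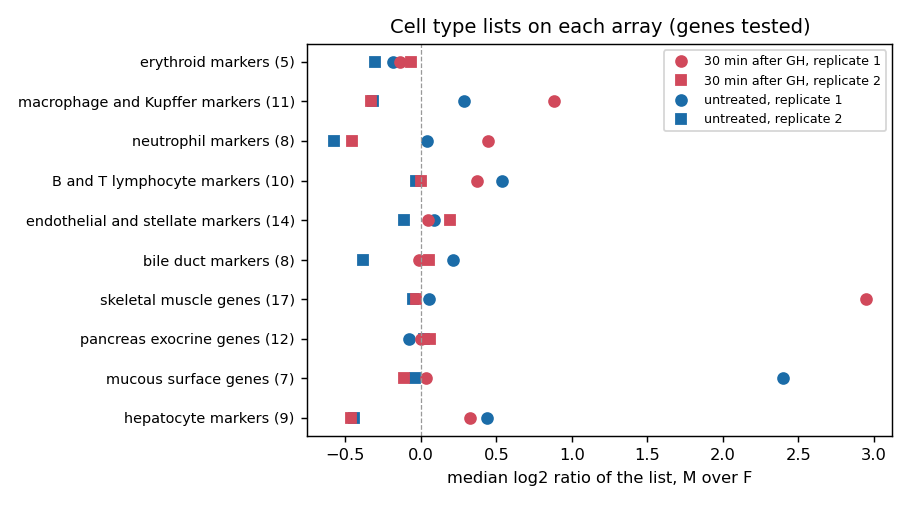
Median log2 ratio of M over F (x axis) for each list of cell type or tissue markers (y axis, number of genes tested in parentheses), with 1 point per array. Skeletal muscle genes lie at 2.95 on GH replicate 1 and mucous surface genes at 2.40 on untreated replicate 1, while the same lists lie near 0 on the other 3 arrays.

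The sex chromosome genes matched the labels on every array. The Y-linked Eif2s3y, which encodes a translation initiation subunit, had log2 ratios of 6.62 and 7.29 on the GH arrays and of 6.95 and 7.31 on the untreated arrays. Ddx3y, an RNA helicase, averaged 5.13 ± 0.08 (SE, 4 arrays), the histone demethylase Kdm5d 3.85 ± 0.07 and its relative Uty 3.32 ± 0.08. Xist, the RNA that silences one X chromosome in females, had -2.50 and -2.28 on the GH arrays and -2.53 and -2.24 on the untreated arrays. Of the 7 Y-linked genes tested 5 were called higher in M. The fifth, Gm20738, was not well above background in F on any array and was at least 1.18-fold higher in M (adjusted p = 0.0161). Of the 442 X-linked genes tested 23 were called, which is 5.2% and close to the 5.28% of autosomal genes, with 10 higher and 13 lower in M. Lower in M were Eif2s3x (-0.62 ± 0.05) and the demethylase Kdm6a (-0.59 ± 0.05), X-linked partners of the genes above that escape silencing. Among the other probes of Eif2s3x 1 gave 1.78 and 1 gave -0.56, so its array value depends on the probe. Mid1, a ubiquitin ligase, was higher in M (0.69 ± 0.07). Bex4 (-0.90 ± 0.17), Gspt2 (-0.71 ± 0.18) and Serpina7, which encodes thyroxine-binding globulin (-0.83 ± 0.13), were lower in M, and Bex2 was higher (0.75 ± 0.19). Gspt2 and Bex2 lost their calls when arrays of the same dye orientation were given a shared error (adjusted p = 0.0974 and 0.0764). Without GH replicate 1 Bex4, Gspt2 and Bex2 lost their calls. The sign of Serpina7 was the opposite in sham livers, where it was 0.82 higher in M, and that difference passed the test (1.65, adjusted p = 5.6e-04).

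Among the 26185 genes, 1216 (4.64%) were called over the 4 arrays, 584 (2.23%) higher and 632 (2.41%) lower in M. Of these, 703 had a symbol placed on an autosome, of 13314 such genes tested (5.28%), with 297 higher and 406 lower in M. Most differences were small: the median size was 0.321 on the log2 scale, 115 genes reached 1.5-fold (50 higher, 65 lower) and 23 reached 2-fold (10 higher, 13 lower). The threshold fell among genes with the same sign on all 4 arrays at an adjusted p of 0.0497 inside and 0.0502 outside. The calls lean on the spread of all 22 arrays and on the 4 arrays being independent. With arrays of the same dye orientation given a shared error, an alternative chosen after the correlations above were seen, 478 genes were called, and 287 of the 703 autosomal genes kept their call. Without GH replicate 1, 495 genes were called and 215 of the 703 kept their call. Fitted on the 4 arrays alone, 9 genes were called, of which Sult2a2 was the 1 autosomal gene with a symbol.

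Sult2a2, a sulfotransferase that conjugates steroids and bile acids and is known as a female-predominant liver enzyme, had the largest difference of the autosomal genes. Its log2 ratios were -4.82 and -3.74 on the GH arrays and -4.06 and -3.16 on the untreated arrays. M livers thus had less of it on all 4, by 15.4-fold on average (-3.95 ± 0.32, adjusted p = 4.23e-05), and a further probe gave -4.29. The same gene was at -5.97 in sham livers, 2.02 further down than in Hypox livers (adjusted p = 0.0463). That difference between sham and Hypox was called for 7.25% of all genes. Sulfotransferase genes are close copies of each other, so the probe may read relatives too. None of the other 11 cytosolic sulfotransferases tested was called over the 4 arrays, whereas 7 of the 12 were called lower in M in sham livers (3.74% of all genes were). Sult1c2 passed in limma toward M (0.345 ± 0.065, adjusted p = 0.0126) but had no call, with -0.006 on GH replicate 1. It stood at -1.32 in sham livers, and the difference passed the test (-1.67, adjusted p = 1.89e-06).

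Nat8f5 and Nat8, neighbouring genes of the same N-acetyltransferase family on chromosome 6, had the largest differences toward M. Nat8f5 had log2 ratios of 1.39 and 2.33 on the GH arrays and of 1.42 and 2.92 on the untreated arrays. Nat8 had 1.08 and 1.91 on the GH arrays and 1.32 and 3.06 on the untreated arrays. For both genes replicate 2 was the higher array in either condition, and all values were above 1. The averages were 2.02 ± 0.30 (4.04-fold, adjusted p = 0.00404) for Nat8f5 and 1.84 ± 0.27 (3.59-fold, adjusted p = 0.00371) for Nat8. In sham livers they stood at 5.28 and 3.86, and both differences between sham and Hypox passed the test (3.26, adjusted p = 0.00234, and 2.01, adjusted p = 0.0217). The other 4 members tested, Nat8f1, Nat8f2, Nat8f4 and Nat8l, were not called, with averages between -0.02 and 0.58. Nat8f5 and Nat8 are of the same family, so their probes may read both genes. The 250 bases before the starts of these neighbours are shown because both genes had similar values (RefSeq, GRCm38.p6, 5′ to 3′, 2 starts of Nat8). No window holds the letters TTCNNNGAA, the form of a STAT5 site, on either strand, whereas 7.02% of 32851 such windows do, and this says nothing of sites elsewhere.
Nat8f5, chr6:85820973-85821222, minus strand: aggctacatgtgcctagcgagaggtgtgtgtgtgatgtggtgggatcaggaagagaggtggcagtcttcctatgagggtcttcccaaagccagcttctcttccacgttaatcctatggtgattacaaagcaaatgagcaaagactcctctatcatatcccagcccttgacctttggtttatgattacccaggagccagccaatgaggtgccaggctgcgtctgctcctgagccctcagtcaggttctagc
Nat8, chr6:85832280-85832529, minus strand: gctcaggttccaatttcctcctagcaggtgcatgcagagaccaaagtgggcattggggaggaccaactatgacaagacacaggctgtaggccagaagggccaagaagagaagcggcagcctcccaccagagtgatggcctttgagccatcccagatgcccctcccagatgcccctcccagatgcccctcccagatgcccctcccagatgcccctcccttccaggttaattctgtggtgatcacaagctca
Nat8, chr6:85836858-85837107, minus strand: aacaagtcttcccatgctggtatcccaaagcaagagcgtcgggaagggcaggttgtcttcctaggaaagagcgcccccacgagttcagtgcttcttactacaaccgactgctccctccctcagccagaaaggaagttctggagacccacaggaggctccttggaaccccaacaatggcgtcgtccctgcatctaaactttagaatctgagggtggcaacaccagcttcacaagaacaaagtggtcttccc

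Of the male-biased genes that were called, 4 are given here with their values. Cyp4a12a, an arachidonic acid hydroxylase that is male-predominant in mice, had 1.60 and 1.93 on the GH arrays and 1.27 and 0.77 on the untreated arrays, an average of 1.39 ± 0.18 against 4.55 in sham livers. A further probe of Cyp4a12a averaged 0.06, and this gene has a near-identical copy, so its value is uncertain. Cyp7b1, an oxysterol hydroxylase of bile acid synthesis, averaged 0.72 ± 0.12 in Hypox and 3.11 in sham livers. Elovl3, a fatty acid elongase, averaged 0.61 ± 0.08 in Hypox and 3.70 in sham livers. It was dim in Hypox livers, with log2 intensities of 6.989 in M and 6.379 in F. Nox4, an NADPH oxidase, averaged 0.92 ± 0.13 in Hypox and 3.19 in sham livers. The M excess was smaller in Hypox than in sham livers for these 4 genes, and the difference passed the test for each, with adjusted p between 9.66e-08 and 5.03e-05.

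Of the 22 male-biased genes tested, 8 were called higher and 1 lower in M in Hypox livers (40.9% called, against 4.64% of all genes), with a list median of 0.31. In sham livers 21 were called higher (5.03% of all genes were) and the median was 2.21. The list consists of genes known for that bias, so its direction in sham livers is no finding. The 1 lower gene was Serpina1e, an alpha-1-antitrypsin (-0.36 ± 0.07 in Hypox and 0.73 in sham livers), which belongs to a family of close copies. Of the 32 female-biased genes tested, 8 were called lower and 2 higher in M in Hypox livers (31.2% called), with a median of -0.21, whereas 29 were called lower in sham livers and the median was -2.41. With a shared error for arrays of the same dye orientation, 6 of the 22 and 7 of the 32 were called. Without GH replicate 1 the counts were 6 and 5.

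The stem cell surface protein Prom1 varied little between arrays, with -1.39 and -1.20 on the GH arrays and -1.39 and -1.54 on the untreated arrays (-1.38 ± 0.12, adjusted p = 7.42e-05, against -2.88 in sham livers). Its relative Prom2 averaged -1.41 ± 0.13 and stood at -2.48 in sham livers, although another Prom2 probe gave -0.18. A run of neighbouring xenobiotic hydroxylases on chromosome 7, Cyp2b10 (-0.77 ± 0.14), Cyp2b13 (-0.60 ± 0.09) and Cyp2b9 (-0.48 ± 0.09), were each lower in M. They were far below in sham livers, at -3.16, -3.25 and -4.06, and their sequences are alike enough that probes may cross. Without GH replicate 1 Cyp2b13 kept its call, and Cyp2b10 and Cyp2b9 lost theirs. Slc22a26, an organic anion transporter, had -1.80 and -0.54 on the GH arrays and -0.53 and -0.46 on the untreated arrays, so its average of -0.83 ± 0.20 leans on GH replicate 1, without which it was not called. Cyp4a14, a fatty acid hydroxylase, averaged -0.74 ± 0.19 and also lost its call without that array. With the shared error neither was called (adjusted p = 0.0755 and 0.102).

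A pair of genes from the female-biased list went the other way. Fmo2, a flavin monooxygenase, averaged 0.45 ± 0.09 in Hypox livers and -1.45 in sham livers, where it was called lower in M. Cd36, a fatty acid transporter, averaged 0.70 ± 0.16 in Hypox livers with 1.59 on untreated replicate 2 and 0.32 to 0.47 on the other arrays, and it lost its call without untreated replicate 2, without either GH array and with the shared error (adjusted p = 0.0794).

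Several of the largest differences in Hypox livers were near 0, of the other sign or smaller in sham livers. Lrrc4, a synaptic adhesion protein in the brain, had -2.34 and -1.71 on the GH arrays and -1.79 and -1.45 on the untreated arrays. All 4 arrays were thus more than 2-fold lower in M, and the average was -1.82 ± 0.14 (3.54-fold lower, adjusted p = 1.72e-05). In sham livers Lrrc4 stood at -0.01, and the difference of 1.81 passed the test (adjusted p = 4.61e-04). Upp2, a uridine phosphorylase of the liver, had 1.80 and 1.01 on the GH arrays and 1.45 and 1.12 on the untreated arrays (1.34 ± 0.17), against -0.85 in sham livers, which did not pass there (adjusted p = 0.0502). The difference between sham and Hypox did pass for Upp2 (-2.19, adjusted p = 6.95e-04). Lrit1, a retinal leucine-rich repeat protein, averaged 0.99 ± 0.14 in Hypox and -0.32 in sham livers, with a tested difference of -1.31 (adjusted p = 0.00518). Trpm6, a magnesium channel, averaged -0.97 ± 0.09 in Hypox livers. It had the same sign in sham livers at a smaller size (-0.36, adjusted p = 0.0976), and that difference passed the test (0.61, adjusted p = 0.0258).

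Other large differences toward M were called both in Hypox and in sham livers. Omd, a small proteoglycan of bone matrix, averaged 1.32 ± 0.13 in Hypox and 2.43 in sham livers (difference 1.11, adjusted p = 0.012). Osbpl3, an oxysterol-binding protein, averaged 1.28 ± 0.23 and 1.17. Ugdh, which makes the sugar donor of glucuronidation, averaged 0.97 ± 0.10 and 0.80. Olfm3 averaged 1.01 ± 0.14 and 0.90, and its other probe gave 1.10. For Osbpl3, Ugdh and Olfm3 the difference between sham and Hypox did not pass (adjusted p = 0.91, 0.64 and 0.853).

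Among the genes lower in M, Nnmt, which methylates nicotinamide, averaged -1.61 ± 0.29 in Hypox and -2.57 in sham livers. Mfsd2a, a lysolipid transporter, averaged -1.38 ± 0.27 and -2.61. Ptger3, a prostaglandin receptor, averaged -1.16 ± 0.19 and -1.50, the T cell kinase Zap70 averaged -1.0 ± 0.10 and -1.59, and Slc51b, a bile acid exporter subunit, -0.97 ± 0.18 and -1.39. These 5 were called in both and their differences between sham and Hypox did not pass. Nnmt and Mfsd2a lost their calls in Hypox livers without GH replicate 1. The leptin receptor Lepr had -1.72 and -1.38 on the GH arrays and -0.88 and -2.20 on the untreated arrays (-1.54 ± 0.26, adjusted p = 0.00676), against -0.73 in sham livers. Its difference between sham and Hypox did not pass (adjusted p = 0.318). Lepr was the 1 called gene of 14 growth hormone and steroid receptors. Errfi1, an inhibitor of the EGF receptor, averaged -1.17 ± 0.23 and the transporter Slc45a3 -1.05 ± 0.19, and both had no call in sham livers. Their differences between sham and Hypox did not pass either (adjusted p = 0.123 and 0.162). Lepr, Errfi1 and Slc45a3 lost their calls without GH replicate 1.

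Of the genes higher in M, the transcription factor Maff (1.28 ± 0.27), Ppp1r42 (1.00 ± 0.20) and Thrsp, which responds to thyroid hormone and takes part in lipogenesis (0.94 ± 0.16), had no call in sham livers. Their differences between sham and Hypox did not pass either (adjusted p = 0.174, 0.619 and 0.0705). Maff had 0.72 and 1.91 on the GH arrays and 1.77 and 0.72 on the untreated arrays, so its high arrays differed in both dye and treatment. Maff and Ppp1r42 lost their calls with a shared error for arrays of the same dye orientation, where their adjusted p was 0.0709 and 0.0573. Ppp1r42 and Thrsp also lost their calls without GH replicate 1.

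**Figure D2:**
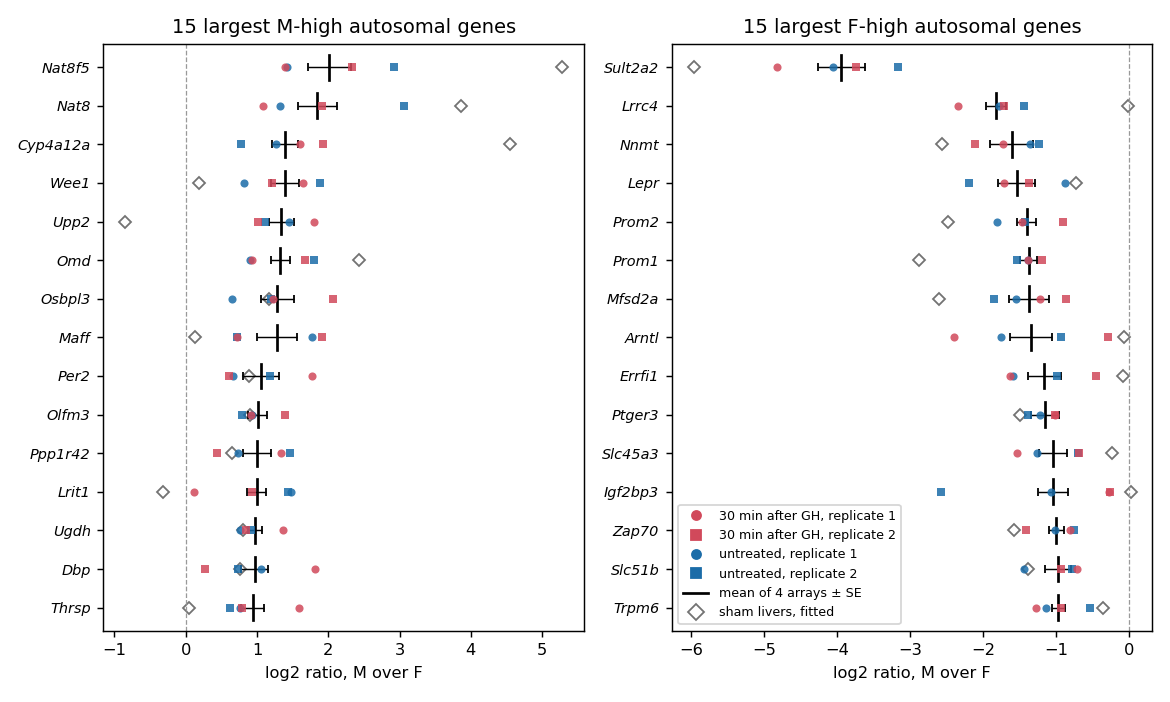
Log2 ratio of M over F (x axis) for the 15 called autosomal genes with the largest positive averages (left) and the 15 with the largest negative averages (right). Filled points are the 4 Hypox arrays, black bars the fitted mean ± SE, and open diamonds the fitted sham value. Sult2a2, Nat8f5 and Nat8 lie further from 0 in sham livers, whereas the sham value of Lrrc4 lies at -0.01.

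Genes of the circadian clock were among those called. The clock is a loop in which CLOCK or NPAS2 with ARNTL activate the Per and Cry genes and the factors Dbp, Tef and Hlf through E-boxes, and PER and CRY proteins then repress them. Of 20 clock genes and outputs tested, 12 were called over the 4 arrays (60.0%, against 4.64% of all genes), 9 of them higher and 3 lower in M, and the list median was 0.48. With a shared error for arrays of the same dye orientation 7 were called, all of them higher, and without GH replicate 1 there were 4. The 3 lower genes were the activators Arntl, Clock and Npas2, which lost their calls with the shared error (adjusted p = 0.0512, 0.0512 and 0.0855), and the 9 higher ones were Per1, Per2, Per3, Cry2, Nr1d2, Dbp, Tef, Hlf and Wee1. In sham livers none of the 20 was called in limma, 4 had an unadjusted p under 0.05 (21.1% of all genes did), and the median was 0.07. The difference between sham and Hypox passed for 4 of the 20, Clock, Cry2, Per1 and Hlf. The list was chosen with earlier results of these data known, and its count is a description.

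Arntl had log2 ratios of -2.41 and -0.29 on the GH arrays and of -1.77 and -0.94 on the untreated arrays. Replicate 1 was the lower array in either condition, and the average was -1.35 ± 0.28 (adjusted p = 0.0199). Clock averaged -0.44 ± 0.09 and Npas2 -0.68 ± 0.17, with -0.02 on untreated replicate 2. The difference between sham and Hypox passed for Clock (0.58, adjusted p = 0.0409) and not for Arntl (1.28, adjusted p = 0.147) or Npas2 (0.38, adjusted p = 0.488).

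Wee1, a mitotic kinase and clock output, had 1.64 and 1.21 on the GH arrays and 0.81 and 1.89 on the untreated arrays (1.39 ± 0.20, adjusted p = 0.00261), against 0.18 in sham livers. The repressor Cry2 varied little between arrays, with 0.74 and 0.54 on the GH arrays and 0.58 and 0.69 on the untreated arrays (0.64 ± 0.07, adjusted p = 4.54e-04), against -0.02 in sham livers, although another Cry2 probe gave 0.10. Per1 was also even, with 0.71 and 0.65 on the GH arrays and 0.57 and 0.58 on the untreated arrays, against -0.14 in sham livers. Hlf, a PAR bZIP transcription factor, averaged 0.84 ± 0.11 in Hypox and -0.25 in sham livers. For Cry2, Per1 and Hlf the difference between sham and Hypox passed the test (adjusted p = 0.00499, 0.0371 and 0.00493), and for Wee1 it did not (-1.20, adjusted p = 0.0508).

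The PAR bZIP factor Dbp had 1.81 and 0.27 on the GH arrays and 1.06 and 0.73 on the untreated arrays (0.97 ± 0.19), against 0.76 in sham livers. The repressor Nr1d2 averaged 0.69 ± 0.12 in Hypox and 0.44 in sham livers. Per2 averaged 1.06 ± 0.25 in Hypox and 0.89 in sham livers, and another of its probes gave -0.11 in Hypox livers. These 3 genes thus had a positive ratio of similar size in sham livers, which was not called, and their differences between sham and Hypox did not pass (adjusted p = 0.787 for Dbp, 0.55 for Nr1d2 and 0.883 for Per2). Per3 averaged 0.77 ± 0.16. Tef averaged 0.71 ± 0.13, although its other probes gave 0.31 and 0.24. GH replicate 1 was the largest array for Dbp, Per2, Per3, Tef and Hlf and the lowest for Arntl and Clock. The 7 genes called with the shared error were Per1, Cry2, Nr1d2, Dbp, Tef, Hlf and Wee1, and the 4 called without GH replicate 1 were Per1, Cry2, Hlf and Wee1. Not called were Cry1, Nr1d1, Rora, Nfil3, Bhlhe40, Bhlhe41, Usp2 and Noct, of which the deubiquitinase Usp2 had the largest average (1.29 ± 0.37, adjusted p = 0.0675).

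**Figure D3:**
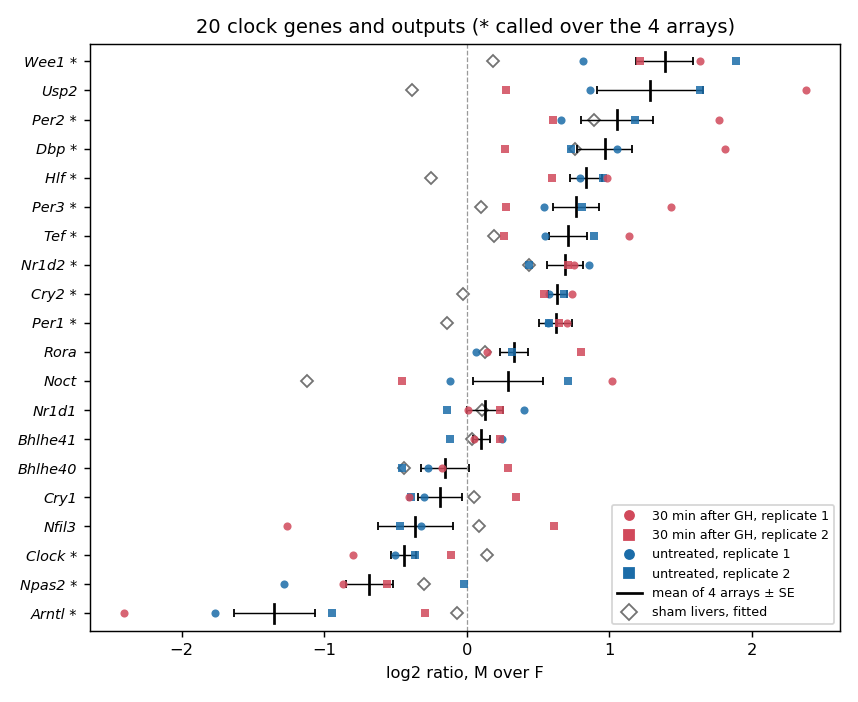
Log2 ratio of M over F (x axis) for the 20 clock genes and outputs tested, in order of their average, with asterisks on the 12 called over the 4 Hypox arrays. Filled points are arrays, black bars the fitted mean ± SE, and open diamonds the fitted sham value, which was called for none of the 20.

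The sequences before the starts of Tef and Per3, higher in M, and of Arntl, lower in M, are shown because clock genes are known to be controlled through short elements near their starts. Capitals mark the E-box CACGTG, which reads the same on both strands and was found in 6.02% of 32851 windows of 250 bases, and the D-box TTATGTAA, searched on both strands and found in 0.819%. Of 7 higher genes with a window, Per1 and Tef held an E-box and Per3 a D-box, and none of the 3 lower genes held either. The STAT5 form TTCNNNGAA, found in 7.02% of all windows, was held by Dbp and Per1 and by none of the 3 lower genes. The 2 starts of Tef each have 1 E-box, 127 and 138 bases before the start, and Per3 has 2 D-boxes, 205 and 158 bases before. A match of letters is not a bound site (RefSeq, GRCm38.p6, 5′ to 3′).
Tef, chr15:81802423-81802672, plus strand: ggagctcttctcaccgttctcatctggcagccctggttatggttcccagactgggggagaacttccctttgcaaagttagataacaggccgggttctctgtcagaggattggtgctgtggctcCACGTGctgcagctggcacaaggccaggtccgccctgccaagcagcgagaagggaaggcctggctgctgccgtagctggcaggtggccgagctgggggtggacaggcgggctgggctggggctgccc
Tef, chr15:81811164-81811413, plus strand: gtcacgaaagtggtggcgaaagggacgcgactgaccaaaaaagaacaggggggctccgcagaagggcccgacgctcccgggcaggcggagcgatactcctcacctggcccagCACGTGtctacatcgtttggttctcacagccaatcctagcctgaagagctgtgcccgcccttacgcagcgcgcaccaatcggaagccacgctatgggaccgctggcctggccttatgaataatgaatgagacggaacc
Per3, chr4:151044666-151044915, minus strand: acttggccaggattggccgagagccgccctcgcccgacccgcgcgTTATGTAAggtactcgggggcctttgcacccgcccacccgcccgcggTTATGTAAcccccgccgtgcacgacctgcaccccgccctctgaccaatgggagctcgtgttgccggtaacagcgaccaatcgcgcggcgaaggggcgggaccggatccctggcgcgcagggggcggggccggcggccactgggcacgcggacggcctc
Arntl, chr7:113207215-113207464, plus strand: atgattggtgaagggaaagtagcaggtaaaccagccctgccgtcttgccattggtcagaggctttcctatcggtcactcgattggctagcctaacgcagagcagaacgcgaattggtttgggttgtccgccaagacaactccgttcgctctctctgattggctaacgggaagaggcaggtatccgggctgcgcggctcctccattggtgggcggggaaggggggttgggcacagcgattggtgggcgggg

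Several lists of lipid, bile acid and glucose metabolism had larger shares of calls than all genes, and several calls were lost with the shared error. In cholesterol synthesis, however, 0 of 21 genes were called in limma, and the list median was 0.21. Of these 21 genes, 5 had an unadjusted p under 0.05, as 20.2% of all genes did. Of 34 targets of PPARalpha and genes of fatty acid oxidation, 5 were called lower and 2 higher in M (20.6%, against 4.64% of all genes), with a list median of -0.17. The lower genes included the mitochondrial enzymes Acadvl (-0.22 ± 0.04), Hadhb (-0.20 ± 0.05) and Hadha (-0.19 ± 0.05) and the lipid droplet protein Plin2 (-0.37 ± 0.08). The higher genes were Cd36 and Fitm1, a lipid droplet protein (0.58 ± 0.10, against 1.86 in sham livers). With a shared error for arrays of the same dye orientation, 2 of the 34 were called, Acadvl and Fitm1, and without GH replicate 1 there were 3.

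Of 18 genes of bile acid synthesis and transport, Cyp7b1 was higher and Hsd3b7, Amacr and Abcb11 were lower in M (22.2% called, against 4.64% of all genes). With the shared error Abcb11 and Amacr lost their calls (adjusted p = 0.0691 and 0.0974), and without GH replicate 1 there was 1 call. Hsd3b7, which acts after the first hydroxylation of cholesterol, averaged -0.56 ± 0.09 in Hypox and 0.05 in sham livers, a tested difference of 0.61 (adjusted p = 0.0385). The exporter Abcb11 averaged -0.48 ± 0.11 and the racemase Amacr -0.19 ± 0.05. In lipogenesis Thrsp and the acyltransferase Gpam (0.41 ± 0.06) were higher, of 16 genes tested (12.5%). Of 14 genes of glucose output and glycogen, the glycogen synthase Gys2 was higher (0.55 ± 0.14) and the glycogen-targeting subunit Ppp1r3c lower (-0.83 ± 0.20), which is 14.3% of the list, and both lost their calls with the shared error (adjusted p = 0.0891 and 0.0855). Of 13 cytosolic chaperones Hsph1 was lower in M (-0.66 ± 0.14), whereas in sham livers it was higher (0.94) and 7 of the 13 were called higher (5.03% of all genes were). None of 22 genes of protein folding in the endoplasmic reticulum was called in limma over the 4 Hypox arrays, although 14 had an unadjusted p under 0.05 (20.2% of all genes did) and the list median was -0.21. By array the median was 0.002 and -0.22 on the GH arrays and -0.23 and -0.32 on the untreated arrays. In sham livers 8 of them were called higher in M (5.03% of all genes were) and the median was 0.57. The cyclin Ccne2 (0.32 ± 0.06) and Wee1 were the called genes of 27 in the cell cycle list. Among the markers of blood, Hbb-bt and Hba-a1, which encode globins, were lower in M (-0.73 ± 0.17 and -0.62 ± 0.16), with -1.58 and -1.24 on GH replicate 1. Both lost their calls without that array and with the shared error (adjusted p = 0.0728 and 0.0913). The other erythroid genes tested were not called, with Alas2, an enzyme of haem synthesis, at 0.34, Slc4a1 at -0.04 and Klf1 at -0.11, and Alas2 was called higher in M in sham livers (2.17). The summed intensity of the 5 erythroid genes tested was 48400 to 88300 in M and 80500 to 114000 in F. Of 8 bile duct markers the transcription factor Sox9 was lower (-0.92 ± 0.21), with 0.05 and -0.61 from its other probes, and it lost its call with the shared error (adjusted p = 0.0717). Thrsp and Serpina7 were the called genes of 10 in thyroid hormone response, and Per1 was that of 14 glucocorticoid targets and metallothioneins. None of the markers of macrophages (11), neutrophils (8), lymphocytes (10), endothelial and stellate cells (14) or exocrine pancreas (12) was called in limma, and 0, 0, 3, 4 and 0 of them had an unadjusted p under 0.05.

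Against sham livers as a whole, 121 of the 703 autosomal genes were also called there in the same direction (46 higher, 75 lower in M), which is 17.2% of the Hypox calls and 8.92% of the 1356 autosomal calls in sham livers. Sham calls made up 10.2% of the autosomal genes tested and 8.77% of all genes. In the opposite direction 46 of the 703 were called in sham livers (26 higher and 20 lower in Hypox M), and 536 had no call there. Of the 121 shared genes, 113 had the larger ratio in sham livers, and for 40 the difference itself passed the test. The SE was larger with 2 sham arrays than with 4 Hypox arrays (0.43 against 0.30 for Nat8f5). A shared gene thus needed a larger ratio to be called in sham livers, so the count of 113 partly follows from the selection. The pools on the sham and Hypox arrays came from different mice. The genes called higher in sham M had a median of -0.005 in Hypox livers, and those called lower had one of -0.04. The 2 sham arrays lay on other slides and were scanned on another day than the 4 Hypox arrays, so surgery and scan cannot be told apart.

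**Figure D4:**
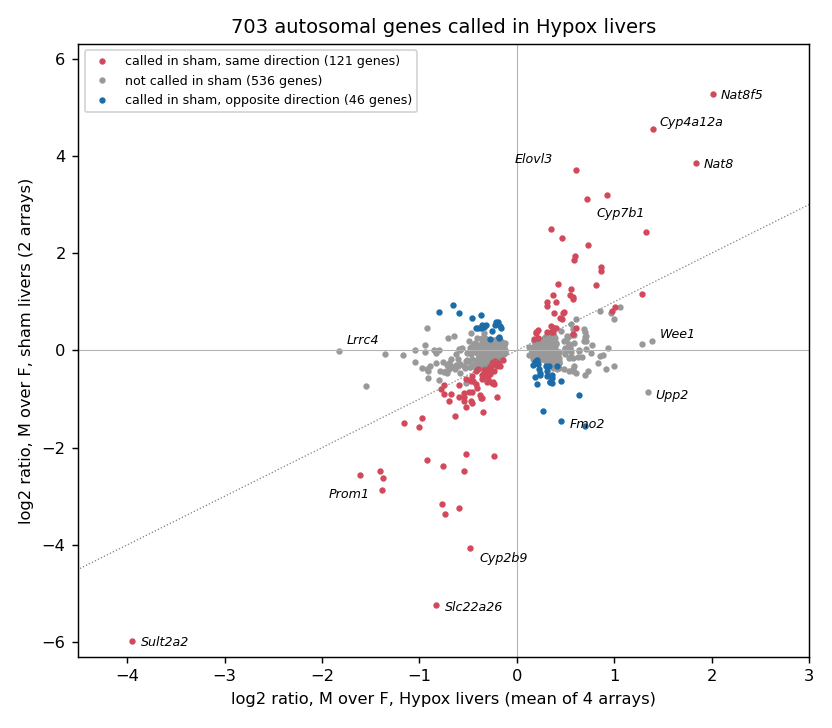
Fitted log2 ratio of M over F in Hypox livers (x axis, 4 arrays) and in sham livers (y axis, 2 arrays) for the 703 called autosomal genes, coloured by the sham call. The dotted line marks equal ratios. Sult2a2, Nat8f5, Nat8 and Cyp4a12a lie steeper than that line, and Lrrc4 and Wee1 lie near a sham ratio of 0.

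Taken separately, the 2 GH arrays gave 132 calls (0.504%, of which 72 higher in M, 0.275%, and 60 lower, 0.229%) and the 2 untreated arrays 427 (1.63%, of which 227 higher, 0.867%, and 200 lower, 0.764%). Of the 703 autosomal genes, 66 were called 30 min after GH, 175 without GH, 34 in both and 496 in neither. A call in 1 condition alone is not a difference between conditions. The difference itself, GH minus untreated, passed for 0 of the 26185 genes (0.0%) in limma, where the smallest adjusted p was 0.113 and 1496 genes (5.71%) had an unadjusted p under 0.05. With a shared error for arrays of the same dye orientation 5 genes passed, and in a model that chains all 22 arrays through their groups 421 did (168 higher, 253 lower after GH). That model counts pools that recur on several arrays as independent. The GH arrays lay on 1 slide and the untreated arrays on 2 others scanned on another day, so GH and slide cannot be told apart.

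The 5 genes with the smallest p, chosen after their values were seen, were the same 5 that passed with the shared error. Ckap4, a membrane protein of the endoplasmic reticulum, had the largest difference among them, with 0.70 and 1.19 on the GH arrays and -0.74 and -0.65 on the untreated arrays. The sign thus turned between conditions, by 1.64 ± 0.24 (adjusted p = 0.128). Other arrays compare GH with no GH within each sex and may hold the same pools. On these, GH over no GH for Ckap4 was 1.06 in M (adjusted p = 0.0162) and -0.73 in F (adjusted p = 0.255). Spc24, a kinetochore subunit, had 0.68 and 0.45 on the GH arrays and -0.35 and -0.35 on the untreated arrays (0.92 ± 0.14, adjusted p = 0.13). Its GH over no GH was 0.16 in M (adjusted p = 0.453) and -0.94 in F (adjusted p = 0.00622). Tmpo, which encodes lamina-associated proteins, had 0.03 and -0.09 on the GH arrays and 0.70 and 0.62 on the untreated arrays (-0.69 ± 0.09, adjusted p = 0.113). Sel1l3 differed by 0.68 ± 0.10 and the cadherin Cdh12 by -0.48 ± 0.07. Cdh12 was dim, with log2 intensities of 6.418 in M and 6.471 in F.

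No difference passed the test for the direct GH targets. Socs2, a suppressor of GH signalling, had -0.97 and -0.00 on the GH arrays and 0.35 and 0.27 on the untreated arrays, a difference of -0.79 ± 0.55 (adjusted p = 0.928). On other arrays of these groups, which may hold the same pools, GH over no GH was 2.22 in M (adjusted p = 0.0197) and 2.96 in F (adjusted p = 0.0269). Cish, of the same family, had 0.24 and -0.15 on the GH arrays and 0.75 and 0.25 on the untreated arrays, a difference of -0.46 ± 0.96. Igf1, the hormone through which GH drives growth, had -0.15 and 0.00 on the GH arrays and 0.25 and 0.80 on the untreated arrays, a difference of -0.60 ± 0.23 (unadjusted p = 0.023, adjusted p = 0.809). Differences smaller than these errors could not be detected with 2 arrays a condition. Of 16 GH and STAT5 targets 1 was called over the 4 arrays, Serpina3k, a serine protease inhibitor (0.85 ± 0.20), and it lost its call with the shared error. Of 28 immediate-early genes 0 were called in limma over the 4 arrays, and 7 had an unadjusted p under 0.05. Bcl6 averaged -0.13 ± 0.20 in Hypox and 1.89 in sham livers, Cux2 -0.04 ± 0.10 and -1.97, and the oestrogen receptor Esr1 0.12 ± 0.09 and -1.29. For these 3 regulators the difference between sham and Hypox passed the test. Cux2 was dim in Hypox livers, with log2 intensities of 6.466 in M and 6.505 in F, so a difference there could be understated. Igf2bp3, an RNA-binding protein, was called over the 4 arrays (-1.05 ± 0.20) with -0.28 and -0.26 on the GH arrays and -1.07 and -2.58 on the untreated arrays, but its difference of 1.56 ± 0.41 did not pass (adjusted p = 0.627).

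**Figure D5:**
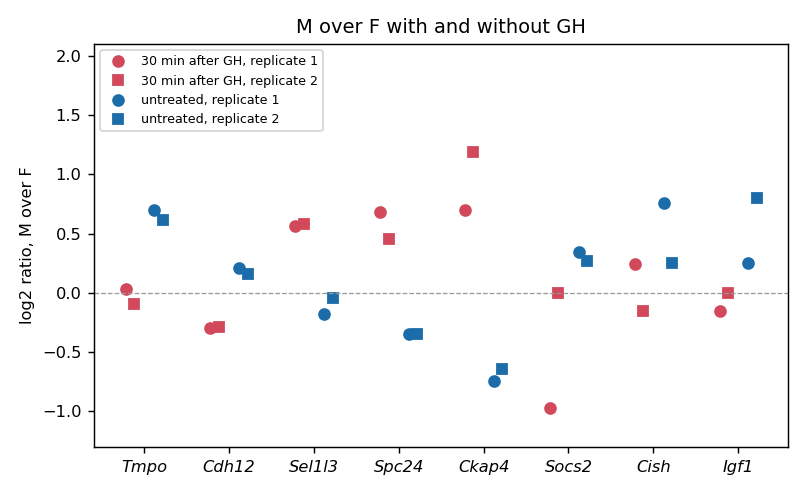
Log2 ratio of M over F (y axis) on the 2 arrays 30 min after GH (red) and the 2 untreated arrays (blue) for the 5 genes with the smallest p for the difference and for Socs2, Cish and Igf1. The GH points of Ckap4, Spc24 and Sel1l3 lie above their untreated points, and those of Tmpo and Cdh12 lie below.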

How the data were processed

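Liver RNA pools had been amplified, labelled with Alexa 555 or Alexa 647 and hybridised to 2-colour Agilent arrays, per the labels. The deposited scanner files hold signal and background intensity per spot and a log10 ratio from Agilent Feature Extraction 9.5.1.1, per the file headers. The deposited value table holds the same log10 ratios as log2 values, per a comparison within 0.005. For the 4 arrays and the 2 sham arrays each column matched the scanner file of its own label.

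Intensities were background corrected (normexp, offset 50) and loess normalized in limma 3.58.1 (R 4.3.3), with control spots at weight 0. Probes were named by accession through RefSeq (GRCm38.p6), and 22072 of 41174 probes matched. The brightest probe stood for each gene, and genes that no comparison measured above background on both of its arrays were dropped. Ratios of all 22 arrays were fitted in 1 model with a coefficient per comparison and a dye term, and p was adjusted by the Benjamini-Hochberg method. A difference was called when its adjusted p was under 0.05 and the arrays of both sides did not overlap. Replicates are separate pools, and their number limits the precision. A gene below background in 1 sex on all arrays is given as at least a fold, from the other sex's mean over the lowest reliable signal. Named genes are the 15 largest called each way, up to 6 on each sex chromosome, up to 4 called per list and 13 regulators and enzymes named in any case; Acadvl, Hadha, Hadhb, Clock, Npas2, Per3, Cry2, Nr1d2, Tef, Hlf, Cyp2b9, Cyp2b13, Fmo2, Serpina1e, Alas2, Slc4a1 and Klf1 are further list members. Some genes are not reported here and were left out of the lists. The members and lists were chosen with earlier results of these data known.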

Additional observations from a re-analysis of the deposited data

Results flagged for a closer look

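A single array lay far from the other 3 for 2 of the named genes and 4 of the gene lists, which is 6 of 101 genes and lists examined. The test used gives about 1 in 20 by chance for independent values. Most of the genes were chosen for agreement over the 4 arrays and some lists share genes, so that rate does not apply here. Whether the number exceeds chance was not tested. Slc22a26 stood at -1.80 on GH replicate 1 and Cd36 at 1.59 on untreated replicate 2. The median of the skeletal muscle genes was 2.95 on GH replicate 1, and that of the mucous surface genes was 2.40 on untreated replicate 1. The median of the PPARalpha targets was -0.32 on GH replicate 1, and that of the growth hormone and steroid receptors was 0.11 on untreated replicate 2.

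The M over F ratio differed between Hypox and sham livers for 29 named genes by the test of the difference, given here as sham minus Hypox on the log2 scale. Among genes with the larger M excess in sham livers, the differences were 3.26 for Nat8f5, 3.15 for Cyp4a12a, 3.09 for Elovl3, 2.38 for Cyp7b1, 2.27 for Nox4, 2.01 for Nat8, 1.28 for Fitm1 and 1.11 for Omd. Among genes with the larger F excess in sham livers, they were -4.41 for Slc22a26, -2.63 for Cyp4a14, -2.39 for Cyp2b10, -2.02 for Sult2a2, -1.50 for Prom1 and -1.07 for Prom2. Genes called in Hypox livers whose sham ratio was near 0 or of the other sign gave 1.81 for Lrrc4, 1.65 for Serpina7, 1.60 for Hsph1, 1.38 for Sox9, 0.61 for Hsd3b7, 0.43 for Amacr, -0.77 for Per1, -1.22 for Cd36, -1.31 for Lrit1 and -2.19 for Upp2. Trpm6, of the same sign and smaller in sham livers, gave 0.61. The regulators with no call in Hypox livers gave 2.02 for Bcl6, -1.93 for Cux2 and -1.41 for Esr1. The Y-linked Uty gave -0.63.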

How the results depend on the processing

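The counts of calls moved widely. Over the 4 arrays, against 1216, they were 40 with median centring in place of loess, 786 with the scanner's log ratio, 9 on the 4 arrays alone, 1967 in the chained model and 478 with a random replicate block, and 300 to 1155 when 1 array was left out. For untreated Hypox, against 427, they were 16, 157, 8 and 2615 in the first 4 of these, 228 with no dye term, and 24 to 459 without 1 array. For Hypox after GH, against 132, they were 15, 63, 8 and 913, with 288 under a fixed replicate block, 225 with slide as a random block, and 23 to 304 without 1 array. The GH difference, 0 genes, became 1 without the sham arrays, 421 in the chained model and 5 with the random replicate block, and stayed at 0 without any 1 array. Genes shared with sham livers, against 121, were 12 with median centring, 239 in the chained model, 66 with the random replicate block and 48 to 129 without 1 array. Differences between sham and Hypox, against 1899, were 215 with median centring, 4214 in the chained model and 1403 to 2133 without 1 array. The counts shared with sham livers and those of the sham difference were recomputed as alternatives added after the data were seen. The cause was not tested, except that fewer arrays enter the fits on 4 arrays or without 1 array.

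Of 65 named genes that were called, 22 kept their call with median centring, 56 with the scanner's ratio, 6 on the 4 arrays alone, 60 with the fixed and 47 with the random replicate block, and 35 without GH replicate 1. The sign turned for Eif2s3x with the mean over its probes (0.20), and for uncalled genes it turned for Cux2 in the chained model (0.01) and without GH replicate 1 for Socs2 and Bcl6, whose ranges without 1 array were -0.46 to 0.28 and -0.31 to 0.051. The replicate numbers also name the dye orientation, and the labels do not tie them to a batch. The correlations of same-numbered arrays were 0.494 and 0.376 with the fitted dye term taken out and 0.458 and 0.395 before. Each condition has 2 arrays, of pools of 2 to 4 mice, which limits what can be seen.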

Other observations

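Called autosomal genes lay side by side in 44 runs of RefSeq neighbours that moved in the same direction, holding 95 genes, as a description with no test. The largest besides Nat8f5 and Nat8 were chosen after their values were seen. Lrit1 and Lrit2 on chromosome 14, leucine-rich repeat proteins of the retina, averaged 0.99 ± 0.14 and 0.76 ± 0.14 in Hypox livers and -0.32 and -0.06 in sham livers. On GH replicate 1 they stood at 0.11 and 0.01, and on the other arrays at 0.81 or above. Evc and Evc2 on chromosome 5, which act together in hedgehog signalling at the primary cilium, averaged -0.69 ± 0.08 and -0.63 ± 0.10 in Hypox livers and -1.05 and -1.35 in sham livers. Probes of neighbours may also read shared or overlapping transcripts.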
